A study of Macaca fascicularis with 7 samples.

Results

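Messenger RNA of cynomolgus monkey (Macaca fascicularis) oocytes that had matured in culture was compared with that of oocytes still at the immature stage. Of the 7 libraries in the series, 5 entered the comparison. They were all 3 libraries of in vitro matured (IVM) oocytes at metaphase II (MII), whose treatment is labelled as treated, and both libraries of germinal vesicle (GV) oocytes, labelled as control. Every oocyte was wild type per the labels. The other 2 libraries, of MII oocytes that had matured in vivo (IVO), within the animal, shared the fit and were used to ask whether a change differed between culture and the animal. Ages, hormone treatment, culture conditions, the number of oocytes in a library and the number of animals are not stated in the labels. The p-values therefore reflect how far these libraries scatter, and that scatter may be technical. Genes were not picked by a pathway or marker: of 28161 gene rows, the 16374 that passed a filter on low counts were all tested.

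A GV oocyte is arrested in prophase of the first meiotic division with an intact nucleus and is close to transcriptional silence at full growth. Maturation to MII takes it through nuclear breakdown, spindle assembly and extrusion of the first polar body, to a second arrest that lasts until fertilisation. Because little new RNA is made, the change runs on stored maternal messages: some are recruited by lengthening of their poly(A) tails, and many are stripped of their tails by the CCR4-NOT deadenylase with its adaptor BTG4 and then degraded. The libraries were primed on poly(A), so a longer or shorter tail and more or fewer molecules of a transcript cannot be told apart.

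Library totals were 23249732 and 22901970 counts in GV and 24332176, 26616841 and 29245733 counts in IVM MII. Levels are given as CPM, counts relative to the library total, after scaling by the trimmed mean of M values (TMM), and they are listed for GV replicates 1 and 2 and then for IVM replicates 1, 2 and 3. The scaling factors were 1.423 and 1.382 in GV and 0.7662, 0.8893 and 0.9095 in IVM MII. By the paths in the labels, GV and MII libraries were kept in different folders, so whatever the folders stand for and the stage cannot be told apart. No libraries matched each other within sampling noise: the chi-square statistic per degree of freedom was 47.9 for the GV pair and 64.2 for IVM replicates 1 and 2. IVM replicate 3 stood apart from the other two, with 251 and 241.

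The oocyte label rests here on GDF9, ZP3 and DPPA3, genes known from oocytes, which all 5 libraries held at 295 CPM or more. They were picked from a longer set of oocyte markers. Others of that set were called lower in IVM MII, such as FIGLA, MOS and OOEP, or higher, such as ZP2, as given below. Among 20 markers of cumulus and granulosa cells, the somatic cells that surround an oocyte, 7 had 0 counts in all 5 libraries, among them AMH, PTX3 and PTGS2. Their summed level was 19.4 and 22.5 CPM in GV and 253, 162 and 101 CPM in IVM MII. Of the 6 tested, TNFAIP6 (7.2 and 13.8 against 149, 115 and 55.6 CPM) and FSHR (2.21 and 1.04 against 53.5, 30.3 and 21.9 CPM) rose. CYP19A1 fell from 0.514 and 0.19 CPM to 0. Of 16 markers of stroma, theca and endothelium, 7 were at 0 throughout, and the sum went from 1094 and 1221 CPM in GV to 74.2, 74 and 90.9 CPM. Most of it was VWF, the von Willebrand factor, at 991 and 1140.1 against 37.6, 40.5 and 46.4 CPM, while the endothelial markers KDR and CLDN5 were at 0 in these libraries. CDH5 also fell, from 67 to 11.9 CPM on average. PECAM1, another endothelial marker, had 13.3 and 12.2 against 9.23, 10.7 and 30.3 CPM and was not called. Of 15 blood and immune markers 8 were at 0 throughout, and only CSF1R was called, lower in IVM MII; their sum was 33.5 and 25.4 CPM in GV and at most 5.3 CPM in IVM MII. Fewer cells of a type and less RNA per cell cannot be told apart in these bulk libraries, and the part of other cells in the results below was not tested. CYP19A1 lost its call without either one of the GV libraries (adjusted p from 0.06 to 0.136) and CSF1R without GV replicate 1 (adjusted p = 0.0638). CYP19A1 did so also without IVM replicate 1, 2 or 3 (adjusted p from 0.0655 to 0.0732). CYP19A1 was not called under at least 1 of the other settings (adjusted p from 0.0502 to 0.224).

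The stages differed in a large share of the tested transcripts. edgeR's quasi-likelihood test called 5949 of 16374 genes (36.3%) at a Benjamini-Hochberg adjusted p under 0.05, of which 3037 (18.5%) were higher and 2912 (17.8%) lower in IVM MII. The numbers were nearly equal but the sizes were not. The median log2 fold change was 2.11 among the higher genes and -3.21 among the lower ones, against -0.10 over all tested genes. Beyond a log2 fold change of 5 lay 88 higher and 579 lower genes. There were 0 counts in both GV libraries for 28 of the higher genes, and 0 counts in all 3 IVM libraries for 229 of the lower ones. The 3 IVM libraries did not overlap the 2 GV libraries in 5945 of the 5949 called genes and in 11311 of all tested genes (69.1%). The 4 called genes that did overlap, named because of that and not by the rule for named genes, were LOC102118240, LOC102120306, MRPS28 and CYP2C43. MRPS28 lost its call without either one of the GV libraries (adjusted p from 0.159 to 0.228). MRPS28 did so also without IVM replicate 1 or 2 (adjusted p from 0.112 to 0.135). MRPS28 was not called with library totals only (adjusted p = 0.19), or under at least 1 of the other settings (adjusted p from 0.0586 to 0.0825).

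**Figure D1:**
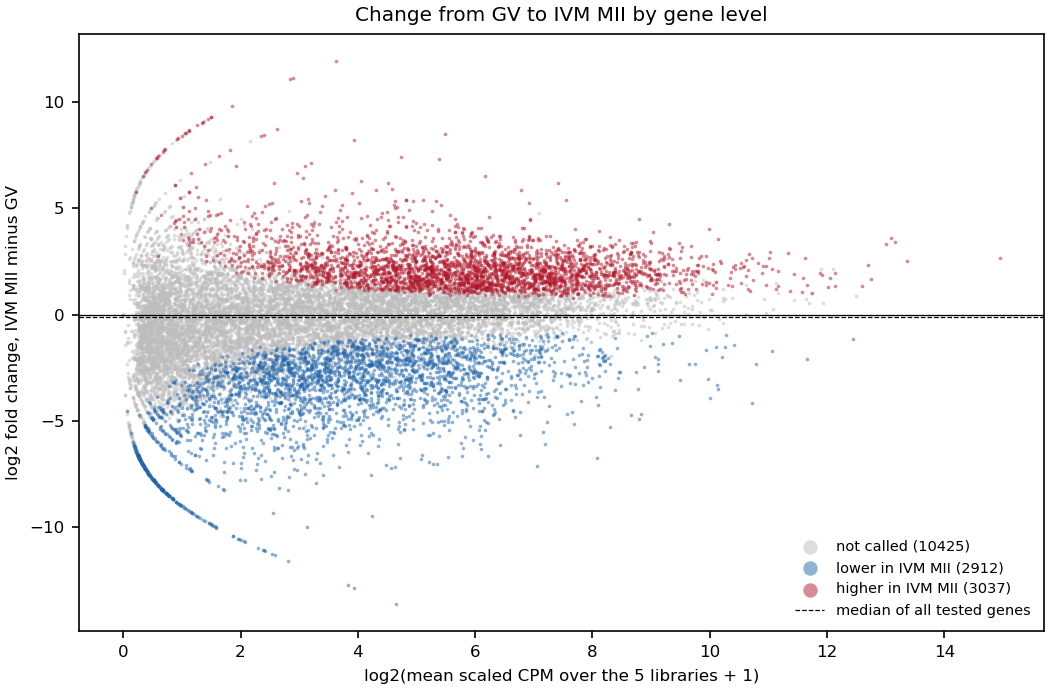
Log2 fold change (IVM MII minus GV) of the 16374 tested genes against log2 of the mean scaled CPM plus 1 over the 5 libraries; red and blue points are genes called higher (3037) and lower (2912), grey points were not called. Blue points reach much further from 0 than red ones, and red points prevail at the right, among genes with many counts; curved rows of points at the left are genes with 0 or few counts in 1 group.

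The direction split rests on the scaling. With library totals alone the median over all genes moved from -0.10 to -0.80, and 1608 genes were called higher against 4170 lower, so that 27.8% of called genes were higher in place of 51.1%. With the scalings RLE and upper quartile the median was -0.24 and -0.21, with 2677 and 2767 higher genes against 3247 and 3093 lower ones. List medians below are to be read against -0.10. The shift with library totals only was -0.71 in the median gene and -0.76 and -0.63 at the 5th and 95th percentiles of genes, so that smaller rises shrank by over 1.5 times, as in ZP2 from 1.10 to 0.40 and CNOT7 from 0.97 to 0.25. Counts of called genes also rest on each GV library: without GV replicate 1 the test called 950 higher and 1160 lower genes, and without GV replicate 2 it called 1247 and 1303. In those fits the remaining GV library was assumed to vary like the other groups.

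Genes were further described in 41 lists of oocyte, cell-cycle, RNA and metabolic functions. Up and down counts of a list that moved by over 1.5 times when 1 library was left out are given in brackets after the main counts, in the same order. Of the 681 called members of these lists and of the cell-type markers, 383 and 352 lost their calls without GV replicates 1 and 2 and 0 turned direction. Nearly all called genes had no overlap between the groups, so leaving out 1 library could hardly turn a direction. Members outside the rule for named genes, and families within lists, were chosen after their values were seen. In 8 of the 41 lists both shares of called members lay within 10 percentage points of those of all tested genes. These were the lists of maturation-promoting factor, fatty acid oxidation, cholesterol synthesis, the unfolded protein response, translation factors, RNA polymerase II, cyclic nucleotide control and early genome activation. Some lists had more rises than falls in the main fit but more falls with library totals only. They were the lists of maturation-promoting factor, the anaphase-promoting complex, the spindle checkpoint, poly(A) addition, decapping, cytoplasmic ribosomal proteins and splicing. The lists of RNA polymerase II, apoptosis, histone-modifying enzymes, cyclic nucleotide control, ubiquitin conjugation and PIWI did so too. Calls of genes named below that were lost under other scalings, filters or tests, with a replicate block or without an IVO library stand at the end of each paragraph, with library totals apart from the others.

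The shares of counts taken by the called genes follow in direction from how those genes were chosen and are given as sizes only. Genes called higher held 24.9% and 27.3% of the counts in GV and 68%, 64.3% and 59.1% in IVM MII. Genes called lower held 31.2% and 29.7% in GV and 3.04%, 4.1% and 4.07% in IVM MII. The median called riser went from 18.1 to 78.3 CPM and the median called faller from 21.2 to 2.39 CPM. IVM libraries held fewer kinds of transcript, with 11717, 12078 and 12086 genes at 1 CPM or more against 13391 and 13392 in GV. They were also more concentrated, since the 10 genes with most counts took 14.9%, 12.1% and 10.3% of the counts against 6.82% and 6.6%.

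Called genes varied among the libraries of a group. Among higher genes the median SD of log2(CPM + 1) was 0.347 over the 3 IVM and 0.177 over the 2 GV libraries, and among lower genes it was 0.358 and 0.189. Of the 3 IVM libraries, replicate 3 lay nearest to the GV level in 56.3% of the higher and 41.7% of the lower genes. Replicate 1 lay nearest in 13.4% and 21.9%. Without IVM replicate 3 the test called 3136 higher and 3192 lower genes.

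The 12 steepest rises among genes with at least 20 CPM took transcripts from near absence to moderate levels. AP1AR, an adaptor-complex partner linked to actin assembly, had 0.272 and 0.126 CPM in GV and 75.9, 79.4 and 64.5 CPM in IVM MII (log2 fold change 8.48 with SE 0.62, edgeR adjusted p = 0.00109). ACVR1C, a type I receptor for activin-like ligands, had 0.181 and 0.664 against 69, 77.7 and 56.3 CPM (7.31, SE 0.86, adjusted p = 0.0014). In both genes the 3 IVM values lay close together and far above either GV value. TMSB15A, a thymosin that binds actin monomers, had 1.24 and 1.33 against 221, 57.8 and 72.8 CPM (6.51, SE 0.77, adjusted p = 0.0014), so that IVM replicate 1 was well above the other IVM libraries. C7H14orf39, whose human counterpart encodes a synaptonemal complex protein, had 0.454 and 0.538 against 59.7, 21.3 and 27.3 CPM (6.17, SE 0.95, adjusted p = 0.00241). RAP2C, a Ras-related GTPase, stood out by its final level, with 9.07 and 5.53 against 353, 269.8 and 295 CPM (5.39, SE 0.63, adjusted p = 0.0014). The others were the olfactory receptor gene OR2A25, the integrin ITGAV, the F-box gene FBXL17, the forkhead factor FOXF2, TMEM65, TBC1D9 and the mitochondrial transporter ABCB10, with log2 fold changes from 5.39 to 8.19. On the deposited table's coordinates, whose build is not named, AP1AR lies on chromosome 5 from 111590684 to 111633049 and ACVR1C on chromosome 12 from 46294268 to 46394887.

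The 12 steepest falls took genes with means between 22.8 and 326 CPM in GV to means of 2.33 CPM or less. IFI35, an interferon-induced gene (chromosome 16, 54777415 to 54786106), had 39.1 and 32.2 CPM in GV and 0 counts in every IVM library, at least 267-fold lower against a floor of 3 counts in each library. SERTAD1, a cofactor that binds a cyclin-dependent kinase, had 50 and 39.4 against 0.0537, 0.0423 and 0.0752 CPM (log2 fold change -9.48 with SE 1.01, edgeR adjusted p = 0.00127). TK1, the thymidine kinase of nucleotide salvage, had 66.3 and 52.2 against 0.161, 0.592 and 0.451 CPM (-7.16, SE 1.10, adjusted p = 0.00234). These 3 genes were at or below 1 CPM in all IVM libraries. CHAC1, an enzyme that degrades glutathione, had the highest starting level of the 12, with 445 and 207 against 0.215, 2.92 and 3.87 CPM (-7.11, SE 1.12, adjusted p = 0.00253). Its GV replicates differed more than those of IFI35, yet both lay far above every IVM value. CCDC63, TMEM177, CYP4V2, DGCR14, BRMS1, TMEM161A, SSSCA1 and GPS1, the last a subunit of the COP9 signalosome, completed the set, with log2 fold changes from -7.56 to -6.94.

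**Figure D2:**
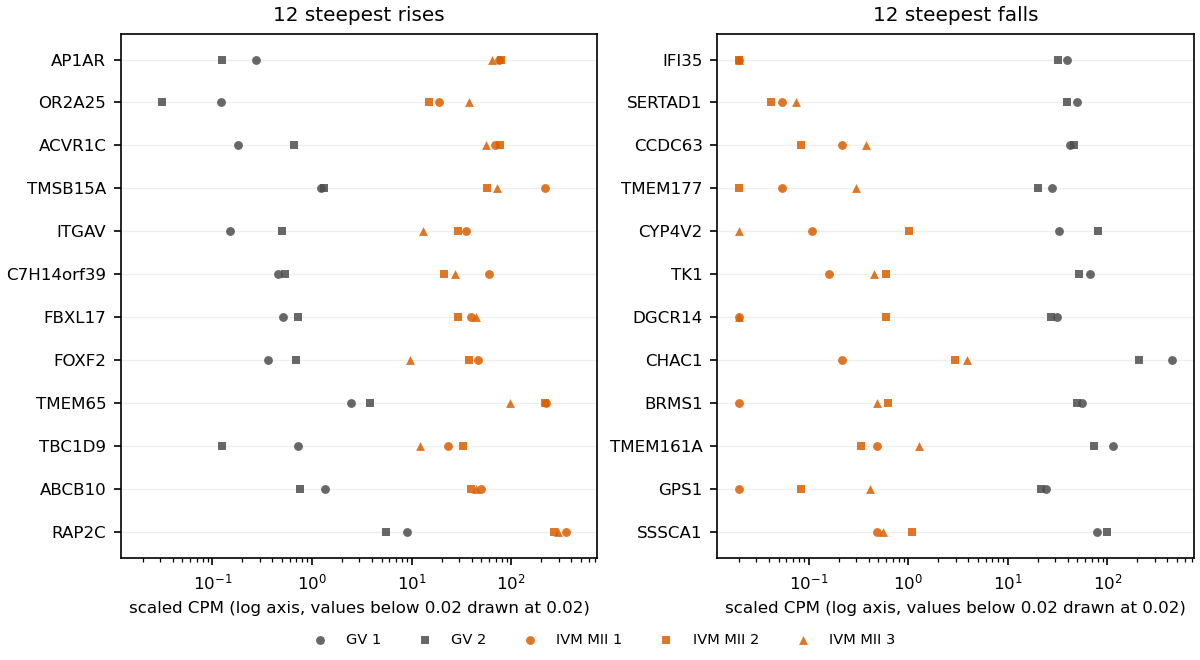
Scaled CPM in each of the 2 GV (grey) and 3 IVM MII (orange) libraries on a log axis for the 12 steepest rises (left) and 12 steepest falls (right) among called genes with at least 20 CPM in the higher group; values under 0.02 CPM are drawn at 0.02. Genes were chosen without overlap between the groups, so grey and orange points are separated in every row. In CHAC1 the orange points spread widely, between 0.215 and 3.87 CPM.

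Of the called genes with a symbol, those with the 8 largest gains in CPM were PTTG2, PTTG1, CKS1B, BTG4, DPPA3, H3F3B, YPEL5 and PCNA. PTTG1 encodes securin, which holds separase inactive until anaphase, and PTTG2 is a copy whose function was not tested. PTTG2 and PTTG1 reached 18589.8, 16135 and 8209 CPM from 1166 and 1501 CPM, and 5854, 5564 and 2874 CPM from 646 and 888 CPM. Their log2 fold changes were 3.42 (SE 0.50, edgeR adjusted p = 0.00207) and 2.64 (SE 0.48, adjusted p = 0.00399). These genes are closely similar copies, so reads may be split between them or shared with other copies. CKS1B, a cyclin-dependent kinase subunit with known processed copies, went from 2310.3 and 3220.0 to 22781, 12859 and 11259 CPM (2.50, SE 0.55, adjusted p = 0.00892). BTG4, the adaptor of maternal mRNA deadenylation, went from 1736 and 2125 to 12392, 7413 and 9602 CPM (2.34, SE 0.45, adjusted p = 0.00511). DPPA3, a maternal factor that guards methylation in the zygote, went from 2728 and 3265 to 14064, 8071 and 6185 CPM (1.66, SE 0.45, adjusted p = 0.0221). PCNA, the sliding clamp of DNA replication, rose from 1772 to 5903 CPM and YPEL5 from 1402 and 1578 to 6058, 4259.8 and 6092 CPM, and the histone gene H3F3B rose from 3224 to 8208 CPM on average. LOC102133058, a protein-coding gene without a symbol on chromosome 14, took the most counts in IVM MII, at 62576, 45068 and 35257 CPM from 6354 and 8828 CPM in GV (2.65, SE 0.42, adjusted p = 0.00254); the rule for named genes takes only genes with a symbol, and this one was chosen after its values were seen. DPPA3 lost its call without either one of the GV libraries (adjusted p from 0.0843 to 0.134) and CKS1B and H3F3B without GV replicate 1 (adjusted p from 0.0671 to 0.128). DPPA3 did so also without IVM replicate 1 (adjusted p = 0.0535). DPPA3 and H3F3B were not called with library totals only (adjusted p from 0.0748 to 0.111).

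The 8 largest losses in CPM among called genes with a symbol included TCL1B, USP2 and FBXW12. TCL1B, a member of the TCL1 family of AKT coactivators, fell from 4301 and 3475 to 82.1, 184 and 389 CPM (log2 fold change -4.15 with SE 0.75, edgeR adjusted p = 0.00399). USP2, a ubiquitin protease, fell from 2002 and 2684 to 71.2, 177 and 208 CPM (-3.94, SE 0.47, adjusted p = 0.0014). FBXW12, an F-box gene, fell from 2419 and 2406 to 270.2, 329 and 141 CPM (-3.29, SE 0.39, adjusted p = 0.0014). All 3 genes stood at 2002 CPM or more in both GV libraries and at 389 CPM or less in every IVM library. The polyubiquitin gene UBB lost most CPM of the called genes with a symbol, from 7821 and 8661 to 4557, 3059 and 3583 CPM (-1.14, SE 0.32, adjusted p = 0.0244). The homeobox gene OTX2, the maternal gene OOEP and the glutathione transferase GSTM3 were also among the 8 largest losses. UBB, OTX2 and GSTM3 lost their calls without either one of the GV libraries (adjusted p from 0.0608 to 0.173) and OOEP without GV replicate 2 (adjusted p = 0.0598). UBB did so also without IVM replicate 2 (adjusted p = 0.0818), OTX2 without IVM replicate 1 or 2 (adjusted p from 0.0778 to 0.083) and GSTM3 without IVM replicate 1 or 3 (adjusted p from 0.0823 to 0.0898). UBB and GSTM3 were not called under at least 1 of the other settings (adjusted p from 0.0629 to 0.0656).

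Oocyte identity genes were called in both directions. Of 17 tested, 7 rose and 2 fell (1 and 2 without GV replicate 1, 2 and 1 without GV replicate 2), with a median log2 fold change of 0.19 (-0.52 with library totals only). The growth factors GDF9 and BMP15, through which the oocyte signals to its cumulus cells, were not called. GDF9 had 4833 and 4217 CPM in GV and 2157, 4871 and 5867 CPM in IVM MII (-0.07, SE 0.42, edgeR adjusted p = 0.907), and BMP15 had 1071 and 865 against 1092, 1002 and 1222 CPM (0.19, SE 0.34, adjusted p = 0.691). The groups overlapped in GDF9, and the IVM range included 1 library below and 2 above both GV values. Among the zona pellucida genes, which encode the egg coat, ZP1, ZP3 and ZP4 were not called and overlapped between groups. ZP2 was called higher, with 1633 and 1481 against 2996, 3638 and 3398 CPM (1.10, SE 0.30, adjusted p = 0.0208). RBM46, a germ-cell RNA-binding protein, rose from 113 and 145 to 743, 703 and 624 CPM (2.42, SE 0.31, adjusted p = 0.00156), and FIGLA, a transcription factor of the growing oocyte, fell from 83.5 and 92.8 to 16.8, 26.2 and 13.1 CPM (-2.23, SE 0.38, adjusted p = 0.00327). The germ-cell RNA-binding genes DAZL and DDX4 rose from 145 to 464 and from 104 to 287 CPM, and YBX2, which packages stored mRNA, fell from 14.4 to 1.96 CPM. KIT, the receptor through which granulosa cells signal to the oocyte, rose from 0.888 to 21.3 CPM. ZP2, DAZL, DDX4 and KIT lost their calls without either one of the GV libraries (adjusted p from 0.0509 to 0.162) and YBX2 without GV replicate 2 (adjusted p = 0.0726). DAZL did so also without IVM replicate 1 (adjusted p = 0.0568) and ZP2 without IVM replicate 2 (adjusted p = 0.0582). ZP2, DAZL and DDX4 were not called with library totals only (adjusted p from 0.0742 to 0.265), and ZP2 was not called under at least 1 of the other settings (adjusted p = 0.0698).

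Maternal effect genes, which the embryo inherits and needs for its first divisions, had more falling than rising members. Of 24 tested, 8 fell and 4 rose (4 and 1 without GV replicate 1, 3 and 0 without GV replicate 2, 5 and 1 without IVM replicate 1, 7 and 2 without IVM replicate 2), with a median log2 fold change of -0.42. Those are 33.3% and 16.7% of the list, against 17.8% and 18.5% of all tested genes. NPM2, a histone chaperone that remodels chromatin at fertilisation, fell from 496 and 482 to 53.8, 93.5 and 58.5 CPM (-2.83, SE 0.42, edgeR adjusted p = 0.00211). DPPA5 fell from 525 and 530.4 to 113, 108 and 98.9 CPM (-2.31, SE 0.34, adjusted p = 0.00211), and UCHL1, a ubiquitin hydrolase, from 508 and 598 to 118, 178 and 83.1 CPM (-2.13, SE 0.36, adjusted p = 0.00315). Of the subcortical maternal complex, OOEP, TLE6 and PADI6 fell from 2208 to 811, from 283 to 87.7 and from 526 to 143 CPM. KHDC3L had 885 and 882 against 1697, 1716 and 929 CPM and was not called (adjusted p = 0.146). NLRP5 had 226 and 249.8 against 53, 149 and 33.4 CPM with an adjusted p of 0.0503, and passed the threshold under 10 of the other settings tried. Other members of the list rose. NLRP4 went from 1476 and 1135 to 3858, 4023 and 4906 CPM (1.71, SE 0.31, adjusted p = 0.00398), NLRP11 from 984 to 2091 CPM and BNC1 from 17.7 to 62.2 CPM, beside DPPA3 above. TLE6, PADI6, NLRP11 and BNC1 lost their calls without either one of the GV libraries (adjusted p from 0.0593 to 0.24) and OOEP and NLRP4 without GV replicate 2 (adjusted p from 0.0513 to 0.0598). PADI6, NLRP11 and BNC1 did so also without IVM replicate 1 or 2 (adjusted p from 0.0596 to 0.1) and TLE6 without IVM replicate 1 or 3 (adjusted p from 0.063 to 0.0873). NLRP11 and BNC1 were not called with library totals only (adjusted p from 0.151 to 0.326), or under at least 1 of the other settings (adjusted p from 0.0519 to 0.084).

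**Figure D3:**
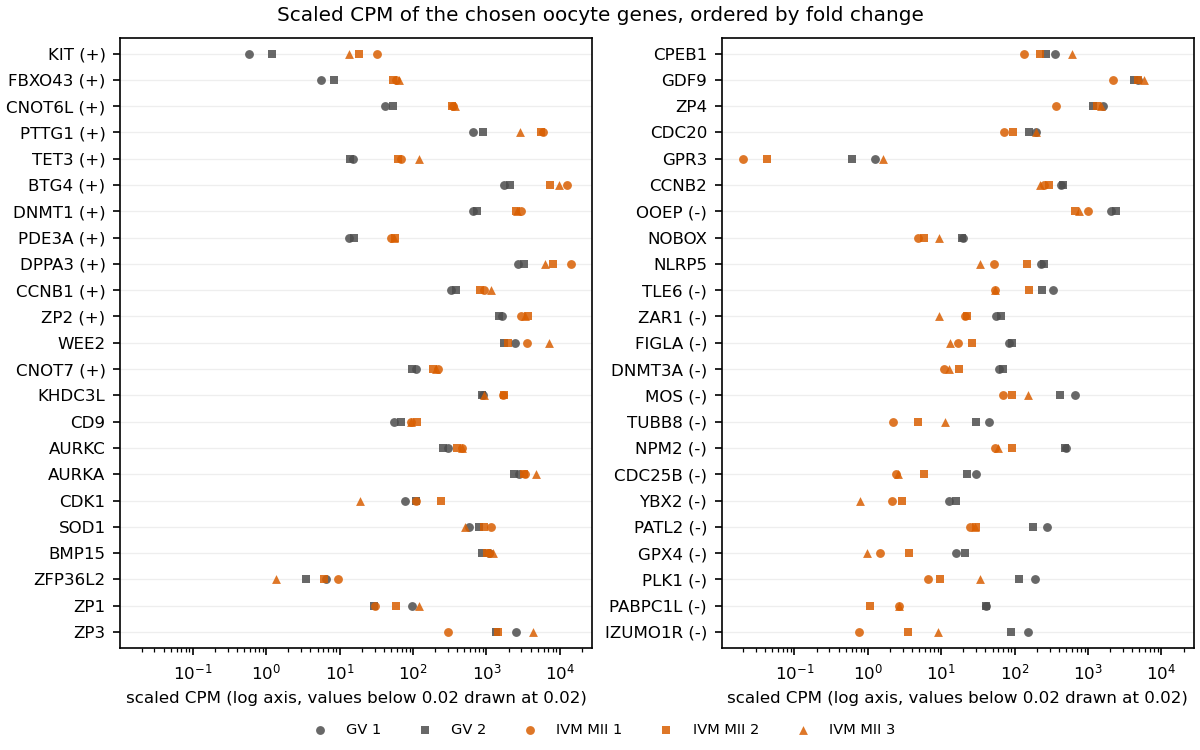
Scaled CPM in each of the 2 GV (grey) and 3 IVM MII (orange) libraries on a log axis for 46 chosen oocyte genes, ordered by fold change; (+) and (-) mark genes called higher and lower. GDF9, ZP1 and ZP3 have mixed colours, while MOS, NPM2 and IZUMO1R in the right panel have every orange point below the grey ones.

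Genes of maturation-promoting factor, the cyclin B and CDK1 kinase that drives entry into M phase, were called in shares near those of all genes. Of 27 tested, 7 rose and 4 fell (2 and 1 without GV replicate 1, 3 and 3 without GV replicate 2), which is 25.9% and 14.8% against 18.5% and 17.8% of all tested genes, with a median log2 fold change of 1.02. CCNA2, cyclin A, rose from 49.4 and 35 to 331, 192 and 223 CPM (2.56, SE 0.40, edgeR adjusted p = 0.00244), and GMNN, which blocks DNA re-replication, from 292 and 392 to 2029.8, 1504 and 1053 CPM (2.16, SE 0.38, adjusted p = 0.00354). Cyclin B1 (CCNB1) rose from 326 and 381 to 936, 817 and 1154 CPM (1.46, SE 0.30, adjusted p = 0.00732). Cyclin B2 (CCNB2) had 432 and 449.6 against 253, 294 and 223 CPM and an adjusted p of 0.0508, so it was not called although the groups did not overlap. It passed the threshold under 10 of the other settings tried. CDK1 itself had 78.9 and 110.3 against 109.9, 237 and 19.1 CPM, with IVM replicate 3 below and replicate 2 above both GV libraries (0.37, SE 0.86, adjusted p = 0.765). The kinase PLK1 and the CDK1-activating phosphatases fell: PLK1 from 152 to 16.5 CPM, CDC25B from 25.9 to 3.63 CPM and CDC25C from 133 and 118 to 24.8, 33 and 37 CPM. WEE2, the oocyte kinase that restrains CDK1, had 2452 and 1752 against 3621, 1958 and 7111 CPM and was not called (adjusted p = 0.154). CCNB1 lost its call without either one of the GV libraries (adjusted p from 0.0583 to 0.0979) and PLK1 and CDC25B without GV replicate 1 (adjusted p from 0.0632 to 0.0731). PLK1 did so also without IVM replicate 1 or 2 (adjusted p from 0.051 to 0.0587). CCNB1 was not called with library totals only (adjusted p = 0.0852).

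The MOS and MAP kinase pathway holds the egg at metaphase II. Of its 16 tested members 4 were called, 1 of them higher and 3 lower (2 and 3 without IVM replicate 3), with a median log2 fold change of 0.57 (-0.12 with library totals only). Those are 6.25% and 18.8% of the list, against 18.5% and 17.8% of all tested genes, so the share of falls was near that of all genes. MOS, the upstream kinase, fell from 673 and 414 to 69.8, 91.4 and 154 CPM (-2.37, SE 0.43, edgeR adjusted p = 0.00418), whereas MAP2K1, the kinase it activates, rose from 162 and 172 to 798, 713 and 677 CPM (2.13, SE 0.31, adjusted p = 0.00201). All 3 IVM libraries lay below both GV libraries for MOS and above both for MAP2K1. ARAF and RPS6KA2 fell from 16.5 to 0.661 CPM and from 15.3 to 6.06 CPM. BRAF was among the 12 members that were not called. RPS6KA2 lost its call without either one of the GV libraries (adjusted p from 0.19 to 0.22). RPS6KA2 did so also without IVM replicate 1 or 2 (adjusted p from 0.0963 to 0.0966). RPS6KA2 was not called under at least 1 of the other settings (adjusted p from 0.0612 to 0.0742).

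The anaphase-promoting complex (APC/C), the ubiquitin ligase that destroys securin and cyclin B, was split. Of 24 tested genes of the complex, its regulators and securin, 8 rose and 7 fell (4 and 1 without GV replicate 1, 5 and 3 without GV replicate 2), with a median log2 fold change of 0.50 (-0.21 with library totals only). ANAPC10 rose from 31.3 and 43.7 to 419.6, 302 and 231 CPM (3.08, SE 0.45, edgeR adjusted p = 0.00204), while ANAPC13 fell from 74.9 and 108 to 5.9, 5.83 and 3.57 CPM (-4.17, SE 0.43, adjusted p = 0.00127). Both are core subunits. The regulators differed as well. FBXO43, the inhibitor EMI2 that keeps the complex off at metaphase II, rose from 5.63 and 8.25 to 58.1, 53 and 63.6 CPM (3.07, SE 0.40, adjusted p = 0.00164), and the related inhibitor FBXO5 (EMI1) fell from 217 to 105 CPM. Of the activators, FZR1 (CDH1) fell from 6.02 to 1.04 CPM and CDC20 was not called, with 198 and 155 against 72, 93.8 and 193 CPM. The protease separase (ESPL1) rose from 14.5 to 31.3 CPM, beside PTTG1 and PTTG2 above. FBXO5, FZR1 and ESPL1 lost their calls without either one of the GV libraries (adjusted p from 0.111 to 0.295). FBXO5 did so also without IVM replicate 1 (adjusted p = 0.0769), FZR1 without IVM replicate 2 (adjusted p = 0.0515) and ESPL1 without IVM replicate 1 or 2 (adjusted p from 0.0875 to 0.11). ESPL1 was not called with library totals only (adjusted p = 0.417), and FZR1 and ESPL1 were not called under at least 1 of the other settings (adjusted p from 0.0509 to 0.103).

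Most of the called cohesin and synaptonemal complex genes rose. Of 18 tested, 10 rose and 1 fell (3 and 1 without GV replicate 1, 6 and 1 without GV replicate 2), with a median log2 fold change of 1.99, the highest of the 41 lists in the main fit. RAD21, the mitotic kleisin, rose from 39.7 and 51.8 to 281, 354 and 178 CPM (2.57, SE 0.46, edgeR adjusted p = 0.00373), STAG1 from 21.5 and 25 to 145, 112 and 97.8 CPM (2.35, SE 0.37, adjusted p = 0.00261), and SMC3 from 97.4 to 355 CPM. The cohesin loader NIPBL and the release factors WAPL, PDS5A and PDS5B rose too, between 9.29 and 55.9 CPM in GV and between 42.6 and 195 CPM in IVM MII. The meiotic subunits SMC1B and STAG3 were not called. SYCE1, a central element protein, was the exception, with 24.3 and 22.6 against 0.751, 0.38 and 1.73 CPM (-4.61, SE 1.05, adjusted p = 0.0106). PDS5A and PDS5B lost their calls without either one of the GV libraries (adjusted p from 0.056 to 0.117) and SMC3, NIPBL and WAPL without GV replicate 1 (adjusted p from 0.0594 to 0.0618).

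Kinetochore and spindle genes moved in both directions. Of 33 checkpoint and kinetochore genes 13 rose and 6 fell (4 and 6 without GV replicate 1, 6 and 5 without GV replicate 2), with a median log2 fold change of 0.72. With library totals only 7 of them rose and 8 fell. CENPE, a kinetochore motor, rose from 276 and 326 to 1679, 1496 and 1522 CPM (2.38, SE 0.30, edgeR adjusted p = 0.00155), and the checkpoint genes BUB3, MAD2L1 and BUB1B from 186 to 757, from 175 to 657 and from 345 to 919 CPM. In the chromosomal passenger complex, BIRC5 (survivin) fell from 309 and 398 to 13.3, 18.8 and 21.7 CPM (-4.30, SE 0.66, adjusted p = 0.00235) and its kinase AURKB from 61.3 to 6.32 CPM, while INCENP, CDCA8 and the oocyte kinase AURKC (299.9 and 256 against 469, 401 and 468 CPM) were not called. SPC24, a subunit of the NDC80 complex, fell from 58.3 and 71.9 to 1.18, 1.52 and 4.21 CPM (-4.81, SE 0.85, adjusted p = 0.00371), but its partners SPC25, NDC80 and NUF2 were not called. Of 32 spindle motor and microtubule genes 14 rose and 4 fell (6 and 1 without GV replicate 1, 6 and 2 without GV replicate 2, 10 and 2 without IVM replicate 1), with a median of 0.82. ASPM, a spindle pole protein, rose from 50.3 and 61.9 to 406, 418 and 363 CPM (2.82, SE 0.31, adjusted p = 0.00135), and KIF11, TPX2 and CKAP5 from 60.1 to 243, from 169 to 359.5 and from 87.2 to 212 CPM. KIF22, TUBB4B, KIF18B and TUBB8, the tubulin of the primate oocyte spindle, fell. TUBB8 went from 44.2 and 29.9 to 2.2, 4.86 and 11.2 CPM (-2.60, SE 0.71, adjusted p = 0.022), and its reads may be shared with other tubulin genes. BUB1B, TPX2, CKAP5, TUBB4B and KIF18B lost their calls without either one of the GV libraries (adjusted p from 0.0966 to 0.197) and BUB3 and TUBB8 without GV replicate 1 (adjusted p from 0.0519 to 0.11). BUB1B, TPX2 and KIF18B did so also without IVM replicate 1 (adjusted p from 0.0515 to 0.0552) and TUBB8 without IVM replicate 1 or 2 (adjusted p from 0.0525 to 0.0705). BUB1B, TPX2 and CKAP5 were not called with library totals only (adjusted p from 0.115 to 0.328), and TPX2, TUBB4B and KIF18B were not called under at least 1 of the other settings (adjusted p from 0.0514 to 0.0703).

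The actin genes that shape the cortex and the polar body divided by gene. Of 28 tested, 9 rose and 4 fell (4 and 4 without GV replicate 1), with a median log2 fold change of 0.50 (-0.20 with library totals only). ACTR2 and ACTR3, the actin-related pair at the core of the ARP2/3 complex, rose from 23.7 and 39.5 to 449.6, 486 and 177 CPM (3.55, SE 0.57, edgeR adjusted p = 0.00262) and from 27.1 and 34.7 to 246, 246 and 99.4 CPM (2.67, SE 0.49, adjusted p = 0.00424). Their partner subunits ARPC4 and ARPC1B fell, ARPC4 from 214 and 285 to 9.23, 17.9 and 28.6 CPM (-3.75, SE 0.54, adjusted p = 0.00202). ECT2 and anillin (ANLN), which act in cytokinesis, rose from 111 to 863 and from 140.2 to 735 CPM. The actin gene ACTG1 and cofilin (CFL1) fell from 974 to 247 and from 488 to 126 CPM, and ACTB was not called. FMN2, the formin that moves the oocyte spindle, rose from 9.97 to 55.6 CPM. FMN2 lost its call without GV replicate 1 (adjusted p = 0.0557) and ARPC1B without GV replicate 2 (adjusted p = 0.0713).

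Genes of mRNA deadenylation were called in 1 direction. Of 26 tested, 8 rose and 0 fell (4 and 0 without GV replicate 1, 5 and 0 without GV replicate 2, 8 and 1 without IVM replicate 3), with a median log2 fold change of 0.74; with library totals only, 6 rose and 3 fell. Besides BTG4, catalytic subunits of the CCR4-NOT deadenylase rose: CNOT6L from 41 and 53.7 to 355, 337 and 367 CPM (2.90, SE 0.33, edgeR adjusted p = 0.00138), CNOT6 from 6.47 and 8.03 to 73.4, 88.9 and 43 CPM (3.24, SE 0.46, adjusted p = 0.00188), and CNOT7 from 109 and 97.2 to 216, 188 and 204 CPM (0.97, SE 0.28, adjusted p = 0.0265). The scaffold CNOT1 was not called. YTHDF3, PUM2 and PAN3, which bring deadenylases to target messages or trim tails, rose from 22 to 141, from 15.9 to 93.9 and from 9.35 to 58.8 CPM. CNOT7 and PUM2 lost their calls without either one of the GV libraries (adjusted p from 0.0698 to 0.228) and PAN3 without GV replicate 1 (adjusted p = 0.0515). CNOT7 did so also without IVM replicate 1 or 2 (adjusted p from 0.0501 to 0.0758). CNOT7 was not called with library totals only (adjusted p = 0.45), or under at least 1 of the other settings (adjusted p from 0.0544 to 0.095).

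Among regulators of poly(A) addition and stored mRNA, 13 of 28 rose and 2 fell (5 and 2 without GV replicate 1, 7 and 2 without GV replicate 2), with a median log2 fold change of 1.33. CPEB2 and CPEB3, cytoplasmic polyadenylation element binding proteins, rose from 2.69 and 3.29 to 98.1, 92 and 38 CPM (4.67, SE 0.55, edgeR adjusted p = 0.0014) and from 3.42 and 2.69 to 51.2, 67 and 25.7 CPM (3.97, SE 0.59, adjusted p = 0.00213), and CPEB4 from 27.3 to 205 CPM. CPEB1, the family member that acts first in maturation, had 352 and 269 against 134, 225 and 599.9 CPM and was not called (0.04, SE 0.62, adjusted p = 0.965). PABPC1L and PATL2 fell: the oocyte poly(A)-binding protein PABPC1L from 40.9 in both GV libraries to 2.63, 1.06 and 2.67 CPM (-4.27, SE 0.52, adjusted p = 0.0015), and the repressor PATL2 from 277 and 176 to 25, 30.2 and 28.7 CPM (-3.02, SE 0.40, adjusted p = 0.00164). Their somatic paralogs PABPC1 and PATL1 rose from 6.64 to 30.2 and from 4.94 to 27.2 CPM. With library totals only 6 members of the list rose and 7 fell. PABPC1 lost its call without GV replicate 1 (adjusted p = 0.0856).

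Of 37 decapping, uridylation and exosome genes 12 rose and 8 fell (5 and 3 without GV replicate 1, 7 and 5 without GV replicate 2, 10 and 5 without IVM replicate 2), with a median log2 fold change of 0.31 (-0.41 with library totals only). The decapping enzyme DCP2 and the exonucleases XRN1 and XRN2 rose from 260.4 to 1125, from 30.5 to 127 and from 46.6 to 115 CPM. Genes of the RNA exosome, which degrades RNA from the other end, were split. EXOSC3 rose from 168 and 197 to 1059, 905 and 662 CPM (2.26, SE 0.35, edgeR adjusted p = 0.00232) and EXOSC7 and EXOSC9 rose, while EXOSC1 fell from 83 and 104 to 11.6, 17.1 and 14.6 CPM (-2.69, SE 0.36, adjusted p = 0.00171) and EXOSC2, EXOSC4, EXOSC5 and EXOSC6 fell to less than 1 CPM on average. XRN2, EXOSC7, EXOSC9, EXOSC5 and EXOSC6 lost their calls without either one of the GV libraries (adjusted p from 0.0784 to 0.317). EXOSC5 did so also without IVM replicate 2 (adjusted p = 0.0855) and EXOSC7 without IVM replicate 1 or 2 (adjusted p from 0.0725 to 0.126). XRN2, EXOSC7 and EXOSC9 were not called with library totals only (adjusted p from 0.138 to 0.619), and EXOSC7 and EXOSC6 were not called under at least 1 of the other settings (adjusted p from 0.0503 to 0.16).

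**Figure D4:**
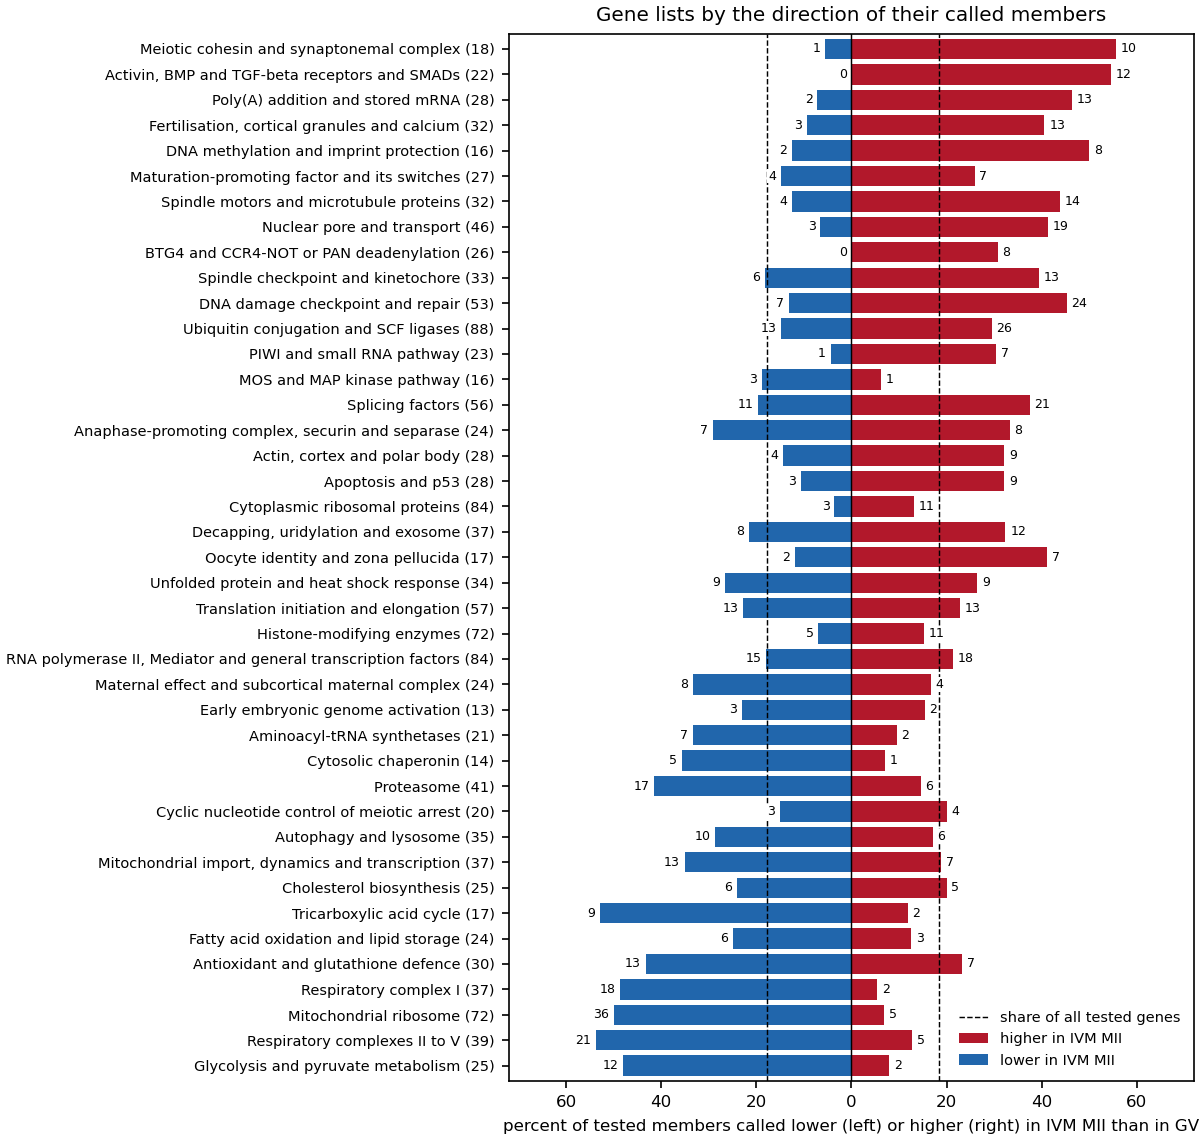
Percent of tested members of 41 gene lists that were called higher (red, right) or lower (blue, left) in IVM MII than in GV, with the numbers of called members at the bars and of tested members in brackets; lists are ordered by median log2 fold change, and dashed lines give the shares over all tested genes (18.5% higher, 17.8% lower). Respiratory chain, mitochondrial ribosome and glycolysis lists lie at the bottom with 48% or more of members lower, and cohesin and activin or BMP receptor lists at the top.

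Nuclear genes of mitochondrial energy metabolism fell in large numbers. In respiratory complex I, the entry point of the electron transport chain, 18 of 37 tested genes fell (48.6%) and 2 rose (10 and 0 without GV replicate 1, 8 and 2 without GV replicate 2, 15 and 4 without IVM replicate 3), NDUFB1 and NDUFB6, with a median log2 fold change of -1.77. In complexes II to V 21 of 39 fell (53.8%) and 5 rose (14 and 0 without GV replicate 1, 10 and 0 without GV replicate 2, 17 and 1 without IVM replicate 1, 20 and 2 without IVM replicate 2, 19 and 8 without IVM replicate 3), with a median of -1.96. UQCRC1, a core subunit of complex III, fell from 163 and 162 to 1.13, 3.3 and 2.78 CPM (-6.07, SE 0.56, edgeR adjusted p = 0.00117), and CYC1, cytochrome c1, from 64.1 and 58.2 to 1.07, 1.48 and 1.39 CPM (-5.53, SE 0.47, adjusted p = 0.00117). COX8A of complex IV fell from 148 and 162 to 3.33, 7.23 and 9.14 CPM (-4.55, SE 0.48, adjusted p = 0.00127), and NDUFB7 from 69.1 and 92.2 to 4.13, 5.03 and 4.29 CPM (-4.17, SE 0.39, adjusted p = 0.00117). In these genes every IVM library was below 10 CPM and every GV library above 58 CPM. By complex, 1 of 4 genes fell and 2 rose in complex II, and 4 of 10 fell in complex III with cytochrome c (2 without GV replicate 2). In complex IV 7 of 11 fell (4 and 3 without GV replicates 1 and 2), and in complex V, the ATP synthase, 9 of 14 (6 and 4 without GV replicates 1 and 2). The summed level, which a few abundant members set, overlapped between the groups: for complex I it was 2064 and 2721 CPM in GV and 2353, 2517 and 1144 CPM in IVM MII, and for complexes II to V 3709 and 4046 against 3892, 3649 and 1958 CPM. Those that rose were SDHC, SDHD, CYCS, COX7A2L and ATP5J. SDHC, SDHD, CYCS, COX7A2L and ATP5J lost their calls without either one of the GV libraries (adjusted p from 0.0715 to 0.181) and NDUFB1 and NDUFB6 without GV replicate 1 (adjusted p from 0.0539 to 0.118). SDHD did so also without IVM replicate 1 (adjusted p = 0.0613) and SDHC, CYCS and ATP5J without IVM replicate 1 or 2 (adjusted p from 0.0557 to 0.0957). SDHC, SDHD, CYCS, COX7A2L and ATP5J were not called with library totals only (adjusted p from 0.0832 to 0.115), and CYCS was not called under at least 1 of the other settings (adjusted p = 0.0548).

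Most called genes of the mitochondrial ribosome were lower. Of 72 tested genes 36 fell (50%) and 5 rose (25 and 0 without GV replicate 1, 22 and 0 without GV replicate 2, 30 and 1 without IVM replicate 1, 34 and 1 without IVM replicate 2), with a median log2 fold change of -1.85. Those that fell were 23 of 45 in the large subunit (13 and 12 without GV replicates 1 and 2) and 13 of 27 in the small subunit (12 and 10). The summed level of the list was 4950.2 and 5767 CPM in GV and 7396, 6432 and 4863 CPM in IVM MII, so that it overlapped. MRPS11 fell from 121 and 150.1 to 2.58, 3.13 and 1.92 CPM (-5.74, SE 1.18, edgeR adjusted p = 0.00682) and MRPL55 from 164 and 158 to 7.4, 9.04 and 4.55 CPM (-4.52, SE 0.40, adjusted p = 0.00117). The genes that rose were MRPL13, MRPL44, MRPL50, MRPS14 and MRPS28. MRPL13 reached 1402, 952 and 579 CPM from 103 and 121 CPM (3.13, SE 0.71, adjusted p = 0.0103). Among 37 genes of mitochondrial import, dynamics and transcription 13 fell and 7 rose (11 and 0 without GV replicate 1, 10 and 0 without GV replicate 2, 13 and 2 without IVM replicate 1, 14 and 3 without IVM replicate 2, 13 and 4 without IVM replicate 3), with a median of -0.86. Import channel genes such as TIMM22 (50.2 and 54.6 against 0.376, 1.56 and 2.37 CPM) and the prohibitins PHB and PHB2 fell, and the fusion genes MFN1 and OPA1 rose from 72.5 to 169 and from 22.8 to 73.8 CPM. MRPL13, MRPL44, MRPL50, MRPS14, MRPS28, MFN1 and OPA1 lost their calls without either one of the GV libraries (adjusted p from 0.0537 to 0.228). MFN1 did so also without IVM replicate 1 (adjusted p = 0.0594) and MRPL44, MRPL50, MRPS14 and MRPS28 without IVM replicate 1 or 2 (adjusted p from 0.054 to 0.135). MRPL44, MRPL50, MRPS14 and MFN1 were not called with library totals only (adjusted p from 0.119 to 0.539), or under at least 1 of the other settings (adjusted p from 0.0505 to 0.104).

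More genes of glycolysis and of the tricarboxylic acid cycle fell than rose. Of 25 glycolysis and pyruvate genes 12 fell (48%) and 2 rose (9 and 1 without GV replicate 1, 8 and 1 without GV replicate 2), with a median log2 fold change of -2.09, the lowest of the 41 lists in the main fit. Its summed level overlapped between the groups, with 1597 and 1811 CPM in GV and 1379, 1159.6 and 2568 CPM in IVM MII. GAPDH fell from 68.6 and 56.4 to 1.45, 3.34 and 2.29 CPM (-4.72, SE 0.47, edgeR adjusted p = 0.00127), TPI1 from 52.8 and 64 to 3.49, 2.24 and 3.2 CPM (-4.29, SE 0.45, adjusted p = 0.00127), and lactate dehydrogenase LDHA from 84.2 to 19.8 CPM. GAPDH, TPI1 and PKM, which fell from 21.1 to 1.37 CPM, have many processed copies. In the pyruvate dehydrogenase complex the first enzyme (PDHA1, PDHB) fell from 104 to 9.72 and from 54.1 to 11.9 CPM, whereas the other two (DLAT, DLD) rose from 6.51 to 45.1 and from 87.9 to 312 CPM. Of 17 cycle genes 9 fell and 2 rose (4 and 0 without GV replicate 1, 5 and 0 without GV replicate 2, 7 and 0 without IVM replicate 1), with a median of -1.51 and a summed level of 1062 and 1016 against 817, 805 and 553 CPM. IDH2, the mitochondrial isocitrate dehydrogenase, fell from 205 and 159 to 1.07, 3.3 and 0.978 CPM (-6.67, SE 0.79, adjusted p = 0.0014), and SUCLG2 and DLST rose from 5.13 to 20.6 and from 39.3 to 90.5 CPM. DLD, SUCLG2 and DLST lost their calls without either one of the GV libraries (adjusted p from 0.0524 to 0.171). SUCLG2 and DLST did so also without IVM replicate 1 (adjusted p from 0.0556 to 0.0659). SUCLG2 and DLST were not called with library totals only (adjusted p from 0.0823 to 0.234).

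Lipid, sterol and redox genes were mixed in direction. In fatty acid oxidation and storage 6 of 24 fell and 3 rose (4 and 1 without GV replicate 1 or 2), with a median log2 fold change of -1.53. Those are 25% and 12.5% of the list, near the 17.8% and 18.5% of all tested genes. HADHA, the trifunctional enzyme of beta-oxidation, went from 738 and 768 to 5.1, 29.2 and 23.1 CPM (-5.30, SE 0.69, edgeR adjusted p = 0.0016), while its partner HADHB was not called, and ACSL4, ACADM and ACSL3 rose from 0.538 to 15.1, from 6.87 to 41 and from 92.8 to 228 CPM. In cholesterol synthesis 6 of 25 fell and 5 rose (1 and 2 without GV replicate 1 or 2, 4 and 2 without IVM replicate 1), with a median of -1.28. Those are 24% and 20% of the list, also near the shares of all tested genes. The early enzymes HMGCS1 (12.1 and 9.74 against 109, 113 and 51.6 CPM; 3.06, SE 0.49, adjusted p = 0.00266) and IDI1 rose, and the intermediate mevalonate enzymes MVK, MVD and FDPS fell to less than 1 CPM from levels of 8.41 CPM or less. In antioxidant and glutathione defence 13 of 30 fell and 7 rose (6 and 1 without GV replicate 1, 5 and 3 without GV replicate 2, 8 and 4 without IVM replicate 1), with a median of -1.60. Peroxidase genes fell, with GPX1 from 137 and 116 to 4.29, 6.59 and 5.72 CPM (-4.51, SE 0.56, adjusted p = 0.00154) and PRDX2 from 164 to 7.74 CPM on average (-4.40, SE 0.55, adjusted p = 0.00155). NFE2L2, which encodes the factor NRF2, and GCLC, GCLM, TXNRD1 and SRXN1, known targets of it, rose from between 1.69 and 6.7 CPM to between 7.11 and 42.6 CPM. These were picked among the risers. HMOX1, another known target, was called lower. Its call was lost without the low-count filter and with a replicate block (edgeR adjusted p = 0.0501 and 0.164). SOD1 was not called. ACSL3, MVK, MVD, NFE2L2, GCLC and SRXN1 lost their calls without either one of the GV libraries (adjusted p from 0.0811 to 0.207), ACADM and TXNRD1 without GV replicate 1 (adjusted p from 0.0782 to 0.121) and ACSL4 without GV replicate 2 (adjusted p = 0.0519). SRXN1 did so also without IVM replicate 1 (adjusted p = 0.0694) and NFE2L2 and GCLC without IVM replicate 1 or 2 (adjusted p from 0.0553 to 0.0631). ACSL3, NFE2L2, GCLC, TXNRD1 and SRXN1 were not called with library totals only (adjusted p from 0.0519 to 0.163), and MVK and MVD were not called under at least 1 of the other settings (adjusted p from 0.0833 to 0.114).

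Proteasome genes were called lower more often than higher. Of 41 tested genes 17 fell and 6 rose (11 and 3 without GV replicate 1, 10 and 3 without GV replicate 2), with a median log2 fold change of -0.67. Among the alpha-ring genes (PSMA) 4 of 8 rose and 1 fell, with a median of 1.45. No beta-ring gene (PSMB) rose and 4 of 9 fell (median -1.38), 5 of the 6 ATPases of the cap (PSMC) fell (2 without GV replicate 1 or 2, 3 without IVM replicate 1; median -2.21), and 5 of its 13 other subunits (PSMD) fell (median -0.57). PSMA2 rose from 168 and 218 to 1644, 1185 and 904 CPM (2.69, SE 0.40, edgeR adjusted p = 0.00213) and PSMA5 from 261 and 336 to 1577, 1138 and 1002 CPM (2.05, SE 0.36, adjusted p = 0.00341). PSMD8 fell from 96.5 and 83.2 to 1.88, 3.38 and 2.86 CPM (-5.05, SE 0.42, adjusted p = 0.00117), and PSMB1 from 448 to 46.2 CPM. PSMA8, the germ-cell alpha subunit, rose from 25.2 to 102 CPM.

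In the main fit, ubiquitin conjugation had more rising than falling genes. Of 88 tested genes of conjugating enzymes, modifiers and SCF ligases 26 rose and 13 fell (14 and 6 without GV replicate 1, 16 and 7 without GV replicate 2), with a median log2 fold change of 0.66 (-0.06 with library totals only). Those are 29.5% and 14.8% of the list, against 18.5% and 17.8% of all tested genes. With library totals only 17 rose and 18 fell. SUMO2 rose from 128 and 153 to 1393, 1051 and 899 CPM (2.99, SE 0.40, edgeR adjusted p = 0.00169), and SKP2 and FBXW7, substrate receptors of SCF ligases, from 84.5 to 605 and from 28.6 to 159.6 CPM. UBE2L6, UBE2J2 and FBXO6 fell to 2.3, 3.45 and 1.6 CPM from 80.9, 113 and 47.9 CPM. Cytosolic chaperonin and prefoldin genes fell in 5 of 14 cases and rose in 1 (3 and 1 without GV replicate 1 or 2, 6 and 2 without IVM replicate 3), PFDN4. CCT3, CCT4 and CCT5, subunits of the ring that folds actin and tubulin, fell, CCT4 from 59.9 and 43 to 7.51, 8.87 and 8.8 CPM (-2.61, SE 0.36, adjusted p = 0.0018). In the unfolded protein and heat shock list 9 of 34 rose and 9 fell (3 and 2 without GV replicate 1, 3 and 3 without GV replicate 2, 7 and 4 without IVM replicate 1, 7 and 5 without IVM replicate 2), with a median of 0.16 (-0.55 with library totals only). Each share was 26.5%, against 18.5% and 17.8% of all tested genes. HSP90AA1 rose from 736 and 856 to 3707, 3431 and 2799 CPM (2.06, SE 0.31, adjusted p = 0.00226), and DNAJB1, a partner of HSP70, fell from 355 and 308 to 41.8, 50 and 58.7 CPM (-2.73, SE 0.45, adjusted p = 0.00285). In autophagy and lysosome genes 10 of 35 fell and 6 rose (3 and 1 without GV replicate 1, 3 and 2 without GV replicate 2, 6 and 3 without IVM replicate 1, 5 and 4 without IVM replicate 2), with a median of -0.76. The cargo receptor SQSTM1 fell from 135 and 119 to 2.52, 3 and 9.59 CPM (-4.65, SE 0.74, adjusted p = 0.00258), and MAP1LC3B, which marks the autophagosome, rose from 137 and 159 to 821, 702 and 549 CPM (2.22, SE 0.34, adjusted p = 0.0024).

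Few cytoplasmic ribosomal protein genes were called. Of 84 tested, 11 rose (13.1%) and 3 fell (3.57%) (1 and 1 without GV replicate 1, 2 and 1 without GV replicate 2, 4 and 1 without IVM replicate 1, 6 and 1 without IVM replicate 2, 13 and 1 without IVM replicate 3), with a median log2 fold change of 0.33 (-0.39 with library totals only, when 2 rose and 9 fell). RPL10 rose from 27.1 and 28.9 to 112, 109 and 127 CPM (2.05, SE 0.31, edgeR adjusted p = 0.00218) and FAU fell from 152 and 174 to 32.6, 45.2 and 27 CPM (-2.22, SE 0.43, adjusted p = 0.00516). RPS26 and RPL31 fell as well. These genes have many processed copies, so their counts are uncertain. Translation factors were called as often upward as downward, with 13 and 13 of 57 (7 and 6 without GV replicate 1, 7 and 7 without GV replicate 2), and a median of 0.16 (-0.55 with library totals only). Each share was 22.8%, near the 18.5% and 17.8% of all tested genes. Of 15 genes of the cap-binding EIF4 group 7 rose and 1, EIF4EBP1, fell (4 and 1 without GV replicate 1 or 2, 7 and 2 without IVM replicate 3; 4 and 4 with library totals only). EIF4G2 rose from 410.2 and 381 to 2966, 2543 and 1585 CPM (2.58, SE 0.38, adjusted p = 0.00218) and EIF4E from 157 to 636 CPM. Of 10 EIF3 genes, EIF3E rose from 24.8 and 27.9 to 236, 168 and 144 CPM (2.79, SE 0.48, adjusted p = 0.00341) and EIF3B, EIF3D, EIF3F and EIF3G fell. Aminoacyl-tRNA synthetase genes fell in 7 of 21 cases and rose in 2 (4 and 0 without GV replicate 1, 4 and 1 without GV replicate 2, 5 and 1 without IVM replicate 1, 4 and 3 without IVM replicate 2), with a median of -0.52, as in HARS from 84.1 and 76.6 to 3.06, 3.34 and 8.05 CPM (-4.06, SE 0.67, adjusted p = 0.00299), while DARS and the scaffold gene EEF1E1 rose. RPS26, RPL31, EIF3B, EIF3F and EEF1E1 lost their calls without either one of the GV libraries (adjusted p from 0.0583 to 0.286) and DARS without GV replicate 1 (adjusted p = 0.0613). EEF1E1 did so also without IVM replicate 1 (adjusted p = 0.0584), EIF3F without IVM replicate 1 or 2 (adjusted p from 0.0928 to 0.127) and RPS26 and RPL31 without IVM replicate 1, 2 or 3 (adjusted p from 0.0584 to 0.0846). EEF1E1 was not called with library totals only (adjusted p = 0.0636), and RPS26, RPL31 and EIF3F were not called under at least 1 of the other settings (adjusted p from 0.055 to 0.118).

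Splicing factors rose in 21 and fell in 11 of 56 cases (9 and 8 without GV replicate 1, 10 and 7 without GV replicate 2), with a median log2 fold change of 0.55 (-0.16 with library totals only). With library totals only 13 rose and 16 fell. MAGOH, of the exon junction complex, rose from 48.1 and 42.5 to 526, 439 and 318 CPM (3.24, SE 0.52, edgeR adjusted p = 0.00262), while its binding partner RBM8A fell from 94.8 to 20.6 CPM. HNRNPA1, HNRNPA2B1, HNRNPC, HNRNPK and HNRNPU rose from between 13.4 and 93.4 CPM to between 81.7 and 358 CPM. Of 11 small nuclear ribonucleoprotein genes (SNRP) 4 rose and 4 fell. Among 84 genes of RNA polymerase II, Mediator and the general factors 18 rose and 15 fell (4 and 6 without GV replicate 1, 4 and 8 without GV replicate 2), which is 21.4% and 17.9% against 18.5% and 17.8% of all tested genes, with a median of 0.01 (-0.13 with RLE scaling). By family, TAF genes rose in 6 of 24 cases and fell in 0 (1 and 0 without GV replicate 1, 0 and 0 without GV replicate 2), and POLR2 genes rose in 2 of 12 and fell in 5 (0 and 2 without GV replicate 1, 1 and 2 without GV replicate 2, 2 and 3 without IVM replicate 1 or 2). The TAF shares were 25% and 0% and the POLR2 shares 16.7% and 41.7%, against 18.5% and 17.8% of all tested genes. MED13 rose from 56.5 and 87.1 to 735, 687 and 554 CPM (3.20, SE 0.42, adjusted p = 0.00158), and MED29 fell from 146 and 175 to 3.86, 14.1 and 2.86 CPM (-4.53, SE 0.72, adjusted p = 0.00255). TBPL2, the TBP paralog of the growing oocyte, fell from 85.1 to 18.8 CPM, and its relative TBPL1 rose from 263 to 742 CPM. HNRNPA2B1, HNRNPU and TBPL1 lost their calls without either one of the GV libraries (adjusted p from 0.0535 to 0.227) and HNRNPC without GV replicate 2 (adjusted p = 0.0523). HNRNPU did so also without IVM replicate 1 or 2 (adjusted p from 0.0756 to 0.0919). HNRNPU and TBPL1 were not called with library totals only (adjusted p from 0.0698 to 0.164), and HNRNPU was not called under at least 1 of the other settings (adjusted p from 0.0569 to 0.074).

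Nuclear pore and transport genes rose in 19 of 46 cases and fell in 3 (6 and 1 without GV replicate 1, 8 and 1 without GV replicate 2, 16 and 5 without IVM replicate 3), with a median log2 fold change of 0.77. None of 22 nucleoporins fell and 11 rose (4 without GV replicate 1, 5 without GV replicate 2, 8 with 2 falling without IVM replicate 3; 6 rose and 2 fell with library totals only). RANBP2 rose from 33.8 and 43.7 to 329, 342 and 202 CPM (2.91, SE 0.44, edgeR adjusted p = 0.00222), and NUP35, NUP37 and NUP153 from 326 to 1736, from 178 to 925 and from 118 to 435 CPM. KPNA2, an importin alpha, fell from 846 and 799.9 to 308, 296 and 276 CPM (-1.49, SE 0.28, adjusted p = 0.00479), with RANGAP1 and the lamin gene LMNA. NUP35, RANGAP1 and LMNA lost their calls without either one of the GV libraries (adjusted p from 0.0599 to 0.172) and NUP153 without GV replicate 1 (adjusted p = 0.0834). RANGAP1 did so also without IVM replicate 1 or 2 (adjusted p from 0.089 to 0.0973) and NUP35 without IVM replicate 1, 2 or 3 (adjusted p from 0.0562 to 0.0809). NUP35 was not called with library totals only (adjusted p = 0.0856), or under at least 1 of the other settings (adjusted p = 0.0506).

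DNA damage and repair genes rose in 24 of 53 cases and fell in 7 (7 and 2 without GV replicate 1, 10 and 2 without GV replicate 2, 17 and 3 without IVM replicate 1), with a median log2 fold change of 0.72 (0.02 with library totals only). The kinases CHEK1 and ATM and the homologous recombination genes BRCA1, BRCA2, PALB2 and BARD1 rose, CHEK1 from 282 to 1379 CPM and BRCA2 from 152 to 513 CPM. PARP2 fell from 113 and 129 to 24.4, 26.7 and 22.8 CPM (-2.30, SE 0.38, edgeR adjusted p = 0.00294), whereas PARP1 rose from 49.6 to 103 CPM. The mismatch repair gene MSH6 rose from 27.3 to 113 CPM. Of 28 apoptosis and p53 genes 9 rose and 3 fell (1 and 1 without GV replicate 1, 2 and 1 without GV replicate 2, 6 and 1 without IVM replicate 2), with a median of 0.42 (-0.27 with library totals only). The inhibitors of apoptosis BIRC2, BIRC3 and XIAP rose, BIRC2 from 33.9 and 33.5 to 246, 182 and 166 CPM (2.55, SE 0.33, adjusted p = 0.00156), and their antagonist DIABLO fell from 314 and 365 to 26.5, 59.9 and 33.9 CPM (-3.08, SE 0.40, adjusted p = 0.00162). BID and GADD45B fell too. BRCA1, PALB2, PARP1, MSH6, BIRC3, XIAP, BID and GADD45B lost their calls without either one of the GV libraries (adjusted p from 0.0522 to 0.231) and ATM without GV replicate 1 (adjusted p = 0.0887). BID and GADD45B did so also without IVM replicate 2 (adjusted p from 0.0526 to 0.0794), BIRC3 without IVM replicate 3 (adjusted p = 0.0531) and BRCA1 and PARP1 without IVM replicate 1 or 2 (adjusted p from 0.0521 to 0.0825). BRCA1, PARP1 and BIRC3 were not called with library totals only (adjusted p from 0.0579 to 0.38), and BRCA1, PARP1, BIRC3 and GADD45B were not called under at least 1 of the other settings (adjusted p from 0.0546 to 0.0939).

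In DNA methylation and imprint protection 8 of 16 genes rose and 2 fell (4 and 1 without GV replicate 1 or 2), with a median log2 fold change of 1.17. The maintenance methyltransferase DNMT1 rose from 652 and 732 to 2945, 2504 and 2640.2 CPM (1.96, SE 0.30, edgeR adjusted p = 0.00244), and its partner UHRF1 from 607 to 1439 CPM. The de novo enzymes went opposite ways, with DNMT3A falling from 61.1 and 69.9 to 10.9, 17.5 and 12.9 CPM (-2.25, SE 0.38, adjusted p = 0.00324) and DNMT3B rising from 21.1 to 62.7 CPM. TET3, the dioxygenase of the zygote, rose from 15.4 and 13.7 to 67.6, 61.6 and 119 CPM (2.51, SE 0.41, adjusted p = 0.00271). KDM1B, a histone demethylase needed for maternal imprints, rose from 100.1 and 133 to 1196, 1157 and 613 CPM (3.08, SE 0.48, adjusted p = 0.0025). Over 72 histone-modifying enzymes 11 rose and 5 fell (5 and 0 without GV replicate 1, 6 and 1 without GV replicate 2, 10 and 1 without IVM replicate 1, 10 and 3 without IVM replicate 2, 13 and 9 without IVM replicate 3), with a median of 0.06 (-0.09 with RLE scaling). SUZ12 of the Polycomb complex rose from 0.969 to 17 CPM. The sirtuin genes SIRT2, SIRT5 and SIRT7, with EHMT2 and KAT7, were those that fell. UHRF1, DNMT3B, SIRT5, SIRT7, EHMT2 and KAT7 lost their calls without either one of the GV libraries (adjusted p from 0.0574 to 0.21), SIRT2 without GV replicate 1 (adjusted p = 0.12) and SUZ12 without GV replicate 2 (adjusted p = 0.0601). SIRT5, SIRT7, EHMT2 and KAT7 did so also without IVM replicate 1 or 2 (adjusted p from 0.0542 to 0.0851). UHRF1 and DNMT3B were not called with library totals only (adjusted p from 0.101 to 0.126), and SIRT7 was not called under at least 1 of the other settings (adjusted p = 0.0538).

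Receptors for activin, BMP and TGF-beta ligands and their SMAD effectors were called in 1 direction. Of 22 tested, 12 rose and 0 fell (5 and 0 without GV replicate 1, 6 and 0 without GV replicate 2, 7 and 0 without IVM replicate 1), with a median log2 fold change of 1.78; 6 rose and 1 fell with library totals only. Type I and type II receptors both rose. BMPR1A went from 8.08 and 13.9 to 154, 136 and 57.5 CPM (3.40, SE 0.53, edgeR adjusted p = 0.0025) and ACVR1 from 3.24 and 8.22 to 52.1, 52.7 and 49.9 CPM (3.17, SE 0.52, adjusted p = 0.00289), and BMPR2 and ACVR2B from 8.65 to 57.3 and from 17.6 to 95.3 CPM. The effectors SMAD1 and SMAD2 rose from 2.23 to 7.81 and from 122 to 438 CPM, and SMAD3, SMAD4 and SMAD5 were not called. The summed level of cumulus and granulosa markers was higher in IVM MII too, as given above, and its part in these receptor values was not tested. SMAD1 and SMAD2 lost their calls without either one of the GV libraries (adjusted p from 0.0938 to 0.198). SMAD2 did so also without IVM replicate 1 (adjusted p = 0.0509). SMAD1 and SMAD2 were not called with library totals only (adjusted p from 0.065 to 0.147), and SMAD1 was not called under at least 1 of the other settings (adjusted p = 0.0748).

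Cyclic AMP made in the oocyte keeps it in prophase arrest. Of 20 genes of this control 4 rose and 3 fell (1 and 3 without GV replicate 1 or 2, 5 and 6 without IVM replicate 3), which is 20% and 15% against 18.5% and 17.8% of all tested genes, with a median log2 fold change of -0.71. PRKACB, a catalytic subunit of the cyclic AMP-dependent kinase, rose from 2.87 and 2.56 to 30.2, 33 and 21.2 CPM (3.37, SE 0.51, edgeR adjusted p = 0.00225), and PDE3A, the phosphodiesterase that ends the arrest, from 13.4 and 15.6 to 49.5, 57.2 and 54.3 CPM (1.89, SE 0.35, adjusted p = 0.00456). The adenylyl cyclase ADCY3 fell from 118 and 139 to 10.1, 25.6 and 15.5 CPM (-2.92, SE 0.43, adjusted p = 0.00211), and GJA4, the gap junction protein that joins oocyte and cumulus cells, from 15 to 0.0658 CPM. The receptor GPR3 was at 1.62 CPM or less in all 5 libraries. PDE3A lost its call without either one of the GV libraries (adjusted p from 0.0521 to 0.0778).

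Genes of fertilisation, cortical granules and calcium rose in 13 and fell in 3 of 32 cases (5 and 2 without GV replicate 1, 5 and 1 without GV replicate 2, 8 and 2 without IVM replicate 1, 8 and 3 without IVM replicate 2), with a median log2 fold change of 1.18. The integrins ITGA6 and ITGB1 rose, ITGA6 from 15.2 and 16.9 to 201, 231 and 88.3 CPM (3.44, SE 0.50, edgeR adjusted p = 0.00203). IZUMO1R, known as JUNO, the egg receptor for the sperm protein IZUMO1, fell from 151 and 90.5 to 0.751, 3.55 and 8.95 CPM (-4.76, SE 0.85, adjusted p = 0.00382). CD9, the egg tetraspanin of sperm fusion, had 55.6 and 69.3 against 94.4, 113 and 94.9 CPM and was not called (adjusted p = 0.13). The calcium release channels differed, with ITPR2 rising from 1.57 to 7.69 CPM, ITPR3 falling from 38.4 to 9.9 CPM and ITPR1 not called. In the PIWI and small RNA pathway 7 of 23 rose and 1 fell (1 and 1 without GV replicate 1, 3 and 0 without GV replicate 2, 7 and 2 without IVM replicate 2 or 3), with a median of 0.60 (-0.11 with library totals only). TDRD6 rose from 29.9 and 33.4 to 336, 304 and 136 CPM (3.03, SE 0.48, adjusted p = 0.00263), and GTSF1 fell from 863 and 1202 to 469, 430.4 and 312 CPM. Among 13 genes of early embryonic genome activation 2 rose, KLF4 and KLF5, and 3 fell, OTX2, ZSCAN5B and ZNF280A (1 and 0 without GV replicate 1, 0 and 2 without GV replicate 2, 1 and 2 without IVM replicate 1 or 2), and POU5F1 and NANOG were not called. The rising and falling genes were 15.4% and 23.1% of this list, near the 18.5% and 17.8% of all tested genes. ITPR2, ITPR3 and KLF4 lost their calls without either one of the GV libraries (adjusted p from 0.0884 to 0.241), ZSCAN5B and ZNF280A without GV replicate 1 (adjusted p from 0.0549 to 0.118) and GTSF1 and KLF5 without GV replicate 2 (adjusted p from 0.0597 to 0.128). ITPR2, ITPR3 and KLF4 did so also without IVM replicate 1 or 2 (adjusted p from 0.0602 to 0.0973). ITPR2 and KLF4 were not called with library totals only (adjusted p from 0.0882 to 0.119), and KLF4 was not called under at least 1 of the other settings (adjusted p from 0.0505 to 0.0776).

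Called genes were not spread evenly over gene level, length or chromosome. With genes cut into 5 equal groups by mean level, 1.01% were higher and 10% lower in the lowest group, and 47.1% were higher and 12.8% lower in the highest. The mean was taken over the same 5 libraries as the change, so this trend is partly built in. Genes with few counts are also harder to call. In 5 equal groups by exonic length, the shortest genes (152 to 1451 bases) had 12.9% higher and 24.3% lower, and the longest (5732 bases or more) had 28.4% higher and 7.91% lower, with medians of -0.50 and 0.55. Counts rise with length as well as with molecules, which bears on how easily a gene is called. Its part in these shares was not tested. The lists of respiratory complex I, complexes II to V and the mitochondrial ribosome had median exonic lengths of 816, 890 and 1261 bases, against 2964 bases over all tested genes. That of the cytoplasmic ribosomal proteins was 834 bases.

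By chromosome, 19 stood apart. Of its 1014 tested genes 5.82% were higher and 28.9% lower, with a median log2 fold change of -1.46. Chromosomes 10, 16 and 20 followed, with medians between -1.02 and -0.95, while chromosomes 5 and 17 had 28.2% and 28.4% of genes higher and medians of 0.75 and 0.66. The 4 chromosomes 10, 16, 19 and 20 together, set apart after these values were seen, had a median of -1.12 against 0.12 on the others, and their median was lower in each of 5 length groups (-1.51, -1.93, -1.27, -0.66 and -0.11 against -0.29, -0.45, -0.06, 0.50 and 0.65). On chromosome 19 the zinc finger genes named ZNF had a median of -0.77 over 159 genes and the other 855 genes one of -1.60. Side by side, the median log2 fold change of IVM MII against IVO MII, which share a folder, was -0.10 on chromosome 19 and -0.14 on the 4 chromosomes. Base composition could not be read without a genome and was not tested. Long non-coding RNA genes had 7.01% higher and 17.8% lower of 499 tested.

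**Figure D5:**
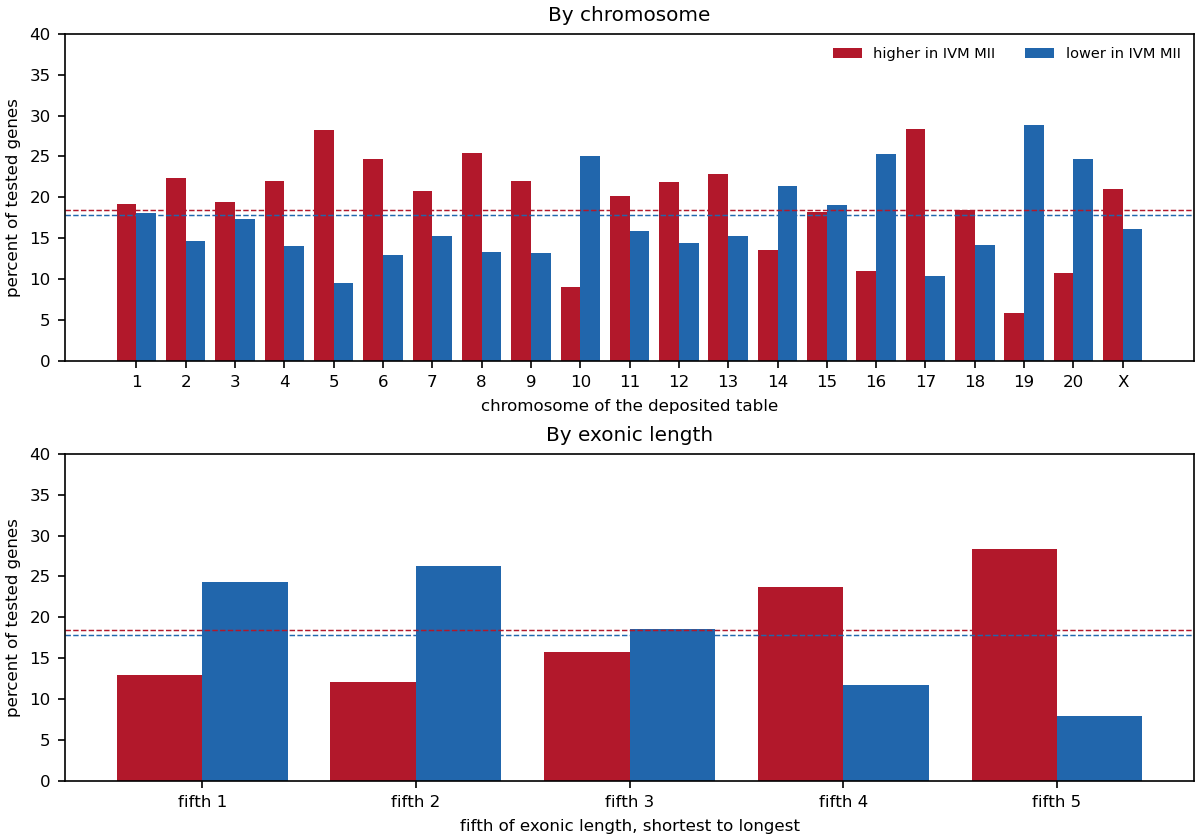
Percent of tested genes called higher (red) and lower (blue) in IVM MII than in GV by chromosome (top) and by 5 equal groups of exonic length from shortest to longest (bottom); dashed lines give the shares over all tested genes. Chromosomes 10, 14, 15, 16, 19 and 20 have more lower than higher genes, with 28.9% against 5.82% on chromosome 19, and the group of longest genes has 28.4% higher against 7.91% lower.

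Few of the changes from GV were found to differ between culture and the animal. The same fit, which the GV, IVM and IVO libraries share, called 241 of 16374 genes (1.47%) between IVM MII and IVO MII. Of the 3037 genes higher in IVM MII than in GV, 70 were also higher and 7 lower in IVM MII than in IVO MII, and of the 2912 lower genes 62 were also lower and 12 higher. Both contrasts use the same IVM libraries, so these counts are a description. They rest on single libraries: without IVM replicate 1 or 2 the test between IVM MII and IVO MII called 0 genes (2703 and 2549 at an unadjusted p under 0.05; DESeq2 on all libraries called 2010), and without IVM replicate 3 it called 1277. It called 96 and 64 genes without GV replicates 1 and 2, and 364 and 22 without IVO replicates 1 and 2. FAM83D, a spindle protein, had 309.6, 195 and 127 CPM in IVM MII, 3.62 and 5.28 CPM in IVO MII and 23.4 and 14.3 CPM in GV (IVM against GV 3.48, SE 0.51, edgeR adjusted p = 0.00207; IVM against IVO 5.56, SE 0.57, adjusted p = 0.00823). CCDC63 had 11.4 and 11 CPM in IVO MII, between the 41.7 and 46 CPM of GV and the 0.376 CPM or less of IVM MII (IVM against IVO -5.59, SE 0.57, adjusted p = 0.00823). OOEP had 2173 and 2805 CPM in IVO MII, close to its 2029.5 and 2386 CPM in GV, and 1015, 665 and 752 CPM in IVM MII (IVM against IVO -1.62, SE 0.31, adjusted p = 0.0438). For these 3 genes the IVM libraries did not overlap the IVO libraries.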

How the data were processed

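Per the labels' protocols, oocytes were lysed by heat, RNA was reverse transcribed from a poly(A) primer with template switching, and full-length cDNA was amplified by PCR, tagmented and sequenced as paired-end reads. Per the submitters' processing notes, the aligner Bowtie2 2.4.5 and the counter featureCounts 2.0.1 were used beside SAMtools 1.15.1, DESeq2 and the read trimmer Trim Galore 0.6.7. The deposited table holds raw counts per gene made by the authors. For its genome build, strand setting and handling of reads with several positions nothing is given in the sources used here, so counts of close copies are uncertain. PCR duplicates were not marked by molecular identifiers, and counting error is small beside the spread between libraries.

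Of the table's lines, 10 broken lines of 3 genes were left out, which left 28161 rows. Names came from the table, and 5013 of 11294 rows named by locus matched RefSeq's current annotation of the species, of which 721 gained a symbol. No sequence was available to print. Counts of all 7 libraries were filtered with filterByExpr, scaled by TMM and fitted with edgeR 4.0.16 (quasi-likelihood test, R 4.3.3, group as the only term), with Benjamini-Hochberg adjustment over 16374 genes and a threshold of 0.05. The test was also run on simulated counts with the same dispersion for every gene, and the outcome is not given here. Alternatives were DESeq2 1.42.0, limma 3.58.1 (voom), other scalings and filters, a replicate block and leaving out each library. Named genes were the 12 steepest rises and falls at 20 CPM or more without overlap, the 8 largest gains and losses in CPM and the 5 genes of highest CPM in each group (all of these among genes with a symbol), up to 3 rises and 3 falls per list, 46 chosen oocyte genes and any of these called against IVO MII. Members and lists were chosen with earlier results of these data known, so they are no independent evidence. A few genes are not reported here.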

Additional observations from a re-analysis of the deposited data

Results flagged for a closer look

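For 10 of the named genes, the level after maturation in culture differed from that after maturation in the animal by edgeR's quasi-likelihood test over all genes (IVM MII minus IVO MII, adjusted p under 0.05, 3 against 2 libraries). Both contrasts use the same IVM libraries, and none of these calls remained without IVM replicate 1 or 2, when the test called 0 genes (2703 and 2549 at an unadjusted p under 0.05; DESeq2 on all libraries called 2010). Among genes that rose from GV, FAM83D stood 5.56 higher on the log2 scale in IVM than in IVO MII, TEX12 5.17, FBXL17 2.92, IDI1 2.86, JAG1 2.39 and ZP2 1.90. The rise of TEX12 from GV was itself not called without GV replicate 1, GV replicate 2, IVM replicate 1 or IVM replicate 2 (adjusted p from 0.0943 to 0.196), or with RLE scaling, library totals only, voom, a filter at 5 CPM or without IVO replicate 2 (0.0513 to 0.119). JAG1, ZP2 and CNOT7 lost their calls against GV without GV replicate 1 (adjusted p from 0.0537 to 0.171), and ZP2 and CNOT7 also in other fits, as given above. TEX12 encodes a synaptonemal complex protein, and IDI1 an isomerase of cholesterol synthesis. FBXL17 was at 4.69 and 5.24 CPM in IVO MII, and ZP2 at 1037 and 752 CPM. CNOT7, a deadenylase gene that also rose from GV, was lower in IVM than in IVO MII (-1.47), with 614 and 508 CPM in IVO MII. Among genes that fell from GV, CCDC63 (-5.59), PABPC1L (-3.41) and OOEP (-1.62) were lower in IVM than in IVO MII. PABPC1L had 16.2 and 29 CPM and OOEP 2173 and 2805 CPM in IVO MII. With 2 or 3 libraries a group, each library was left out in turn, but no separate rule was set to flag an outlying library.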

How the results depend on the processing

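The count of 5949 genes called between IVM MII and GV stayed within 1.5 times under every other test, scaling and filter tried (4877 to 7710) and ranged from 2110 to 6716 when 1 library was left out, with the fewest without GV replicates 1 and 2. Higher genes ranged from 950 to 3310 and lower ones from 1160 to 3535 in those fits, and with library totals only 1608 genes were higher against 4170 lower. None of the 246 called named genes turned direction under any setting. That was largely set by the calling and is no independent check. The groups did not overlap in 5945 of the 5949 called genes, so leaving out 1 library could hardly turn a direction. The smallest called log2 fold change was 0.79 in size, and library totals only shifted the median gene by -0.71. Of the 20 named genes that were not called, 11 changed sign with library totals only, and 0 to 5 under any other setting. Of 266 named genes, 68 and 55 fell below the threshold without GV replicates 1 and 2, 27 with library totals only and at most 31 under any other setting. Calls between IVM MII and IVO MII depended more on the processing: 241 genes became 2010 with DESeq2, 772 with the newer edgeR dispersion method, 497 with voom, 731 without a low-count filter, 54 with only the groups compared and 0 to 1277 when 1 library was left out. The cause was not tested.

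A replicate block, which treats equal replicate numbers as pairs, called 5818 genes between IVM MII and GV (2984 higher, 2834 lower) and 1238 between IVM MII and IVO MII. Deviations from the group means correlated at -0.171 between GV and IVM replicate 1 and 0.11 between GV and IVM replicate 2. The deviations of 2 GV libraries mirror each other, so these values cannot show whether libraries of equal number share an animal or a batch. IVM and IVO libraries were not correlated in this way.

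The GV group has 2 libraries, of 22901970 and 23249732 counts. The smallest called log2 fold change was 0.79 in size.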
